A study of Mus musculus with 16 samples.

Results

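The integrin chains, the laminin chains and the adhesion molecules Vcam1 and Icam1 were described across 4 genotypes of mouse mammary organoids. They were chosen by gene symbol among the protein-coding genes of the count table, as every Itga gene, Itgb1 to Itgb8, every Lama, Lamb and Lamc chain, and Vcam1 and Icam1. The rule found 39 of 55487 gene identifiers: 18 integrin alpha chains, 8 integrin beta chains, 11 laminin chains and the 2 adhesion molecules of the immunoglobulin superfamily. All 39 passed the filter on low counts, which kept 24252 genes for testing.

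Integrins are transmembrane receptors made of 1 alpha and 1 beta chain, which tie the cytoskeleton to the extracellular matrix or to other cells. Laminins are trimers of an alpha, a beta and a gamma chain and are the main adhesive proteins of basement membranes, the sheets on which mammary epithelium rests. Vcam1 and Icam1 are cell-surface proteins bound by integrins of leukocytes, Vcam1 by the alpha4 beta1 integrin and Icam1 by integrins with the beta2 chain. In the mammary gland, integrins alpha3 beta1 and alpha6 beta4 are known as receptors that anchor basal cells to laminin.

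RNA of organoid cells was sequenced in 16 samples. The labels give WT organoids (n = 3), PIK3CA mutant organoids (n = 4), HER2 mutant organoids (n = 4) and organoids with both mutations, called double mutants here (n = 5), and the series names the changes as PIK3CAH1047R and HER2V777L. All were grown in 1 medium with epidermal growth factor and conditioned medium with R-spondin1 and Noggin. The labelled tissue was normal breast for WT and tumor breast for the mutants, so genotype and tissue source cannot be told apart in any comparison with WT. The same holds for any estimate that includes WT. The labels do not give the promoter or Cre behind the mutations, the age of the mice, or whether replicates came from separate mice, so p-values measure only the spread between these samples, which may be technical. Samples held 45545182 to 64168308 counts. Levels are given as CPM, read counts scaled to a common library size after TMM normalization, and between genes as RPKM, CPM per kilobase of exon. Values of 1 genotype are listed in the order of their replicate numbers. Epithelial marker genes were abundant in all samples, at 2800 to 5640 CPM summed over 12 luminal genes and 265 to 1400 CPM over 9 basal or myoepithelial genes. Endothelial markers were near 0, at 0.628 to 5.07 CPM summed over 7 genes.

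More integrin and laminin genes passed the test against WT than between mutants, and most of those were lower than in WT. A gene was called at an adjusted p under 0.05 in edgeR's quasi-likelihood test, with Benjamini-Hochberg adjustment over all 24252 genes. In PIK3CA mutants, 2 of the 39 rose and 7 fell, where 1.49% of all genes rose and 3.03% fell. In HER2 mutants, 3 rose and 11 fell, against 4.75% and 5.63% of all genes. In double mutants, 4 rose and 12 fell, against 5.03% and 6.72% of all genes. The median log2 fold change of the 39 was 0.01, -0.07 and -0.27 in these comparisons, and that of all genes -0.03, 0.03 and 0.01. Itgad and Lamc3, counted among the falls, held at most 7 and 10 reads in any mutant sample. They passed the filter on low counts through WT, so a call against WT could only be a fall. Itgam and Itgax held at most 13 reads in any PIK3CA or double mutant sample. At those counts their calls against WT in these genotypes could hardly be other than falls. Leaving out WT replicate 3 lowered the counts from 9 to 4 in PIK3CA mutants and from 14 to 6 in HER2 mutants. The count for double mutants went from 16 to 11 without that sample. In fits of only the 2 genotypes compared, 17 genes were called in PIK3CA mutants and 4 in HER2 mutants.

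Between mutants, few members passed. Against PIK3CA mutants, HER2 mutants had 0 higher and 3 lower, where 2.21% of all genes were higher and 2.2% lower. Against HER2 mutants, double mutants had 1 higher and 3 lower, against 1.03% and 1.47% of all genes. Against PIK3CA mutants, double mutants had 0 higher and 1 lower, against 0.309% and 0.363% of all genes. The interaction, the difference between the double mutant and HER2 mutant minus the difference between the PIK3CA mutant and WT, was called for 1 member, with a negative estimate, where 0.515% of all genes had a positive and 0.544% a negative call. At an unadjusted p under 0.05 in edgeR these 4 sets held 18, 16, 8 and 8 of the 39 members. Of all 24252 genes they held 4705, 4318, 3012 and 3291. DESeq2 called 10, 8, 3 and 5 members, and 2219, 1715, 661 and 966 of all genes.

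**Figure D1:**
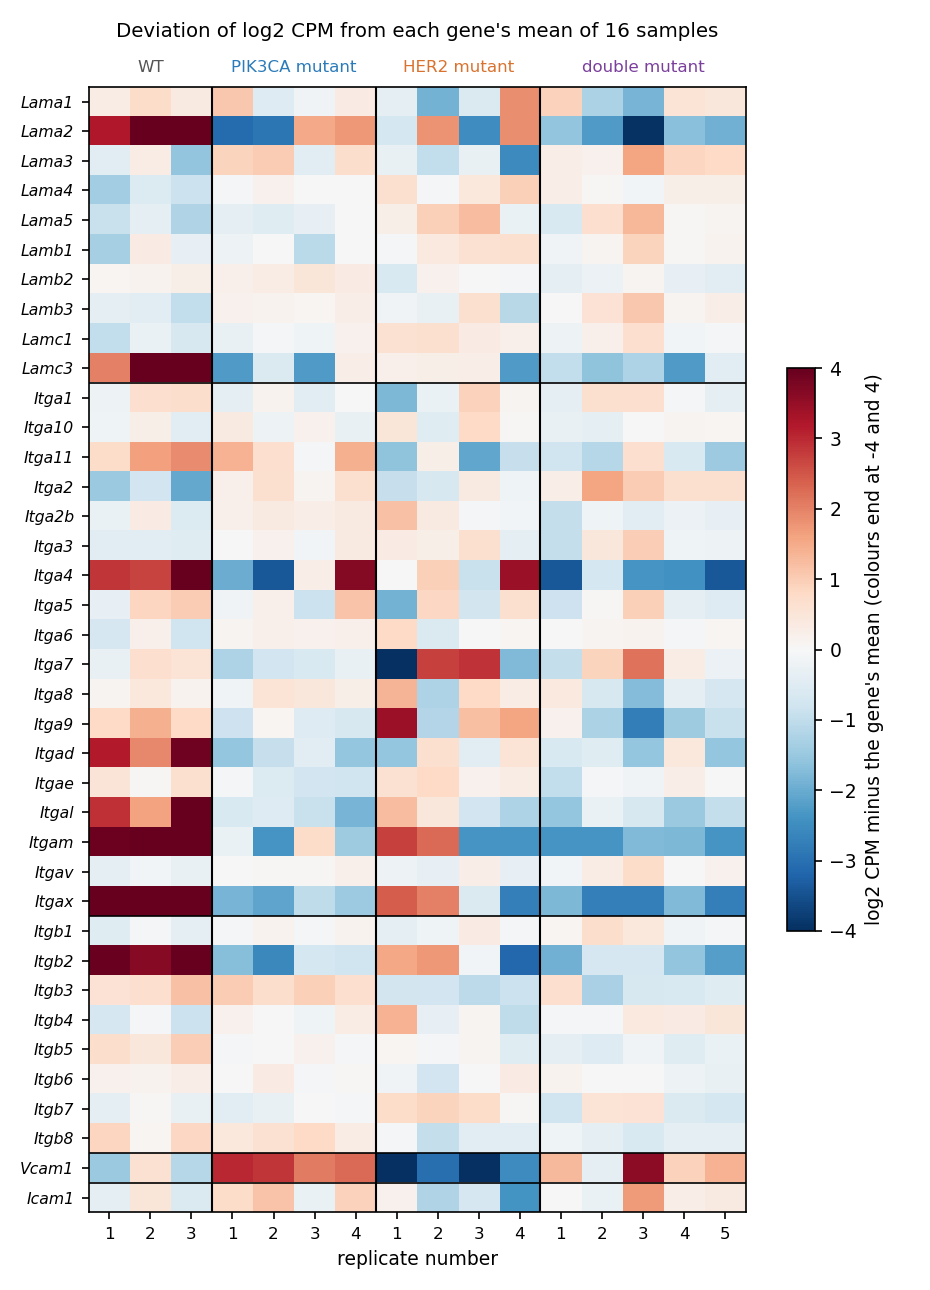
Deviation of log2 CPM from each gene's mean over the 16 samples, for the genes named (rows) and the samples by genotype and replicate number (columns). Red is above and blue below the gene's mean. The leukocyte integrins Itgam, Itgax and Itgb2 are red in all 3 WT samples, and Vcam1 is red in the 4 PIK3CA mutant samples and blue in the 4 HER2 mutant samples.

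Vcam1 (chromosome 3, 116109949 to 116129688, minus strand, GRCm38) differed most between the mutants. It stood at 4, 17.2 and 5.14 CPM in WT and at 92.6, 82.8, 48.1 and 54.2 CPM in PIK3CA mutants. In HER2 mutants it stood at 0.207, 1.37, 0.668 and 1.94 CPM, and in double mutants at 27.7, 8.64, 136, 21.6 and 29.9 CPM. The samples of HER2 mutants lay below those of every other genotype with no overlap, and double mutants spanned a wider range than PIK3CA mutants. Vcam1 was 66.2-fold lower in HER2 than in PIK3CA mutants (log2 fold change -6.05, SE 0.902) by edgeR's test (adjusted p 0.00228), and this call was kept without any 1 sample. Double mutants were higher than HER2 mutants in all 5 samples, with a log2 fold change between 4.39, without double mutant replicate 3, and 5.9 when each sample was left out in turn. This call (edgeR adjusted p 0.00606) was kept in all of those fits, with a highest adjusted p of 0.014. In a fit of these 9 samples alone, edgeR's adjusted p was 0.0588.

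Against WT, the fall of Vcam1 in HER2 mutants was -3.07 on the log2 scale (SE 0.831, adjusted p 0.0297 in edgeR). This call was lost without WT replicate 2 or 3 or HER2 mutant replicate 1 or 3 (adjusted p 0.0587 to 0.142) and in the fit of 2 genotypes (0.0808). The log2 fold change of PIK3CA mutants against WT was 2.98 (95% interval 1.15 to 4.82), with all samples above WT but an edgeR adjusted p of 0.0639. That of double mutants against WT was 2.35 (0.61 to 4.09), with an adjusted p of 0.0761. Double and PIK3CA mutants differed by -0.64 (-2.06 to 0.79), and the interaction was 2.43 (0.17 to 4.69), with adjusted p values of 0.779 and 0.325.

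In bulk RNA, fewer cells that express a gene and less of its RNA per cell cannot be told apart. Basal or myoepithelial marker genes also differed between these genotypes. Of 9, 5 were lower in HER2 than in PIK3CA mutants, against 2.2% of all genes. In double mutants 2 of the 9 were higher than in HER2 mutants, against 1.03% of all genes. The 9 markers summed to 265 to 974 CPM in HER2 mutants, 525 to 1400 CPM in PIK3CA mutants and 566 to 1040 CPM in double mutants. HER2 mutant replicate 1 had the highest basal sum of its genotype, 974 CPM, with 507 CPM from Krt14, and the lowest Vcam1, 0.207 CPM. Krt5 was at 14.1 to 52 CPM in HER2 mutants, 99.6 to 412 CPM in PIK3CA mutants and 69 to 346 CPM in double mutants. Mylk, at 2.02 to 8.56, 20.1 to 23.1 and 10.6 to 25.6 CPM, did not overlap either. The other basal markers overlapped between HER2 and double mutants. No basal marker was at 0 in any sample. Luminal marker genes moved in the same comparisons, with 2 of 12 lower in HER2 than in PIK3CA mutants and 3 of 12 higher in double than in HER2 mutants. Their sums were 2800 to 3660 CPM in HER2 mutants, 3970 to 4600 CPM in PIK3CA mutants and 3760 to 5640 CPM in double mutants. The part of basal and luminal markers in the Vcam1 result was not tested.

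**Figure D2:**
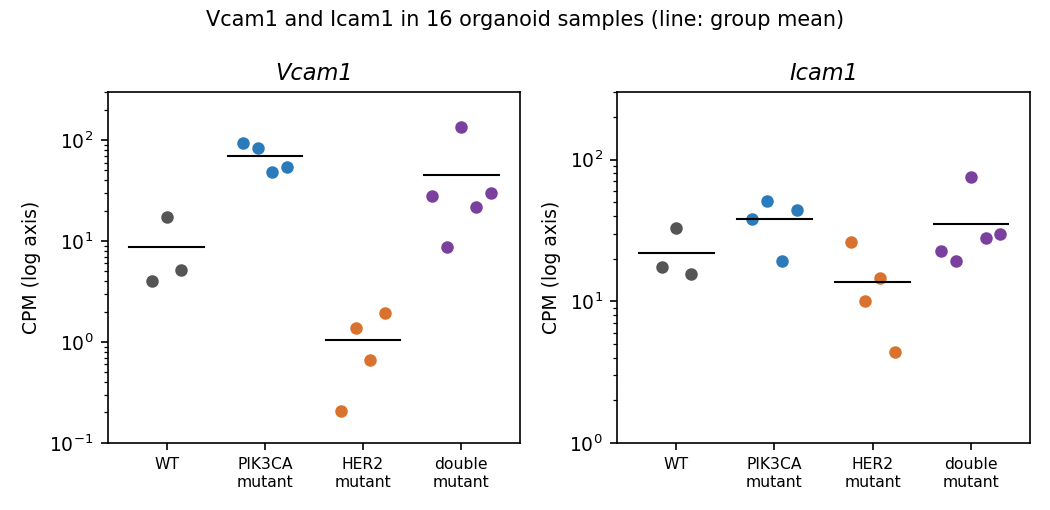
CPM on a log axis of Vcam1 (left) and Icam1 (right), 1 point a sample in replicate order, with a line at each genotype's mean. Vcam1 in HER2 mutants lies at 0.207 to 1.94 CPM, under all other samples, whereas the Icam1 samples of all genotypes overlap.

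Icam1 (chromosome 9, 21015985 to 21028817, plus strand, GRCm38) stood in the same order of means, with overlap between the genotypes. It was at 17.5, 32.7 and 15.6 CPM in WT and at 38.3, 51.3, 19.2 and 44.2 CPM in PIK3CA mutants. HER2 mutants had 26, 10.1, 14.5 and 4.34 CPM, and double mutants 22.6, 19.1, 74.8, 27.9 and 29.8 CPM. Double mutant replicate 3 was the highest of its genotype for both adhesion molecules. No comparison of Icam1 passed the test. The log2 difference between HER2 and PIK3CA mutants was -1.48 (95% interval -2.56 to -0.39, edgeR adjusted p 0.114), and that between double and HER2 mutants 1.34 (0.3 to 2.38, adjusted p 0.155). Of the exon sequence of Icam1, 11.7% lies opposite the antisense gene Gm47079, and the strand setting of the counting is not given in the sources used here.

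Icam1 is a known target of NF-kB, the transcription factor of inflammatory signalling, whose site in the human ICAM1 promoter is known. The 250 bases before its start, chr9:21015690-21015939 on the plus strand, are shown because they hold that site's letters in the mouse. They come from the RefSeq promoter table for GRCm38.p6, in which 24 of the 39 genes had an entry. The capitals mark the kappa B letters GGAAATTCC.
Icam1: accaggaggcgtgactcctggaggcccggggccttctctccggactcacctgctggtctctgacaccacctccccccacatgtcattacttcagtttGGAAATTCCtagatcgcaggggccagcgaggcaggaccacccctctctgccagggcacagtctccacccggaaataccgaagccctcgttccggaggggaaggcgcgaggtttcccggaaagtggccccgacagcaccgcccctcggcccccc
The match starts 153 bases before the start used in the RefSeq table. That start lies upstream of the gene start given above, which comes from another annotation. Searched on both strands, these letters occurred in 0.286% of the 32851 promoters of the table and in no other of the 27 entries of the 39 genes. A match is a description of the letters and shows no binding.

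Among genes known to respond to NF-kB there were calls in both directions. Of 15 tested, 2 rose and 1 fell in PIK3CA mutants against WT, 3 rose and 3 fell in HER2 mutants, and 5 rose and 1 fell in double mutants. Of all genes, 1.49%, 4.75% and 5.03% rose and 3.03%, 5.63% and 6.72% fell in these comparisons. Tnfaip3, an inhibitor that damps the pathway, rose in all 3 mutants (log2 fold changes 1.48, 1.3 and 1.76). Nfkbia, another inhibitor, rose in PIK3CA mutants (1.06) and double mutants (1.24), and stood at 0.85 in HER2 mutants with an edgeR adjusted p of 0.0575. The chemokine gene Ccl2 fell in all 3 (-4.27, -3.58 and -3.94). Tnfaip2 was lower in HER2 than in PIK3CA mutants (-1.12) and rose from HER2 to double mutants (1.27), the only gene of the 15 called in either comparison. Of 8 other adhesion molecules of the immunoglobulin superfamily, Ncam1 rose in PIK3CA mutants against WT (2.03), Pecam1 fell in double mutants (-1.54), and L1cam was higher in HER2 than in PIK3CA mutants (2.93).

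The beta2 integrin genes Itgb2, Itgax, Itgal and Itgad fell in all 3 mutants against WT, and Itgam fell in PIK3CA and double mutants. Itgb2, the common beta chain of the leukocyte integrins, was at 41.5, 33.9 and 99.7 CPM in WT. It was at 0.795, 0.413, 1.62 and 1.52 CPM in PIK3CA mutants and at 7.77, 9.02, 2.45 and 0.266 CPM in HER2 mutants. Double mutants had 0.674, 1.66, 1.67, 0.868 and 0.544 CPM. All WT samples were above all mutant samples, and within HER2 mutants replicates 1 and 2 were above replicates 3 and 4. Its log2 fold changes against WT were -5.75 (SE 0.871) in PIK3CA mutants, -3.58 (SE 0.789) in HER2 mutants and -5.75 (SE 0.793) in double mutants, with adjusted p values of 0.00147, 0.0108 and 0.000366 in edgeR. The call in HER2 mutants was lost without WT replicate 3 (adjusted p 0.0686) and in the fit of 2 genotypes (0.0921).

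The alpha chains that pair with Itgb2 lie close together on chromosome 7, with Itgam at 128062640 to 128118491, Itgax at 128129547 to 128150657, Itgad at 128154376 to 128223816 and Itgal at 127296260 to 127335138, all on the plus strand. Itgax, the chain known as CD11c of dendritic cells and macrophages, was at 20.5, 4.66 and 22.7 CPM in WT. In PIK3CA mutants it was at 0.0318, 0.0207, 0.0886 and 0.0536 CPM, and in HER2 mutants at 1.32, 0.983, 0.134 and 0 CPM. Double mutants had 0.0355, 0, 0, 0.0369 and 0 CPM. The split among HER2 mutants was that of Itgb2, with replicates 1 and 2 above the others. Itgax fell in PIK3CA mutants (log2 fold change -8.32, SE 1.14), HER2 mutants (-4.7, SE 0.92) and double mutants (-9.82, SE 1.15), with edgeR adjusted p values of 0.00104, 0.00564 and 0.000201. In the fit of WT and HER2 mutants alone, the adjusted p was 0.084.

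Itgam, the chain known as CD11b of myeloid cells, was at 2.97, 4.36 and 8.01 CPM in WT and at 0.127, 0, 0.288 and 0.0357 CPM in PIK3CA mutants. HER2 mutants had 1.28, 0.906, 0 and 0 CPM, and double mutants 0, 0, 0.0196, 0.0185 and 0 CPM. Double mutants held 2 reads of Itgam in all against 868 in WT, a rate ratio of 677 with a 95% counting interval of 187 to 5600. It fell by 8.99 on the log2 scale there (SE 1.44, adjusted p 0.000916 in edgeR), kept without any 1 sample. In PIK3CA mutants it fell by 5.5 (SE 1.22, adjusted p 0.0151), a call lost without WT replicate 3 or PIK3CA mutant replicate 1, 2 or 4 (0.0522 to 0.0784). In HER2 mutants all samples were below WT, at -3.21 with an adjusted p of 0.0673. Of its exon sequence, 68.7% is shared with the gene Gm49368 on the same strand, and how reads in both were counted is not given in the sources used here.

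Itgal, the chain of the LFA-1 integrin of lymphocytes, was at 3.93, 1.56 and 11.9 CPM in WT and at 0.302, 0.331, 0.244 and 0.107 CPM in PIK3CA mutants. HER2 mutants had 1.19, 0.675, 0.267 and 0.184 CPM, and double mutants 0.142, 0.399, 0.294, 0.148 and 0.233 CPM. It fell in the 3 mutants by 4.55, 3.31 and 4.57 on the log2 scale (edgeR adjusted p 0.00173, 0.00682 and 0.00046). The call in HER2 mutants was lost without WT replicate 3 (adjusted p 0.0708) and in the fit of 2 genotypes (0.0822). Itgad, which encodes the alphaD chain of macrophages, was at 0.961, 0.38 and 1.6 CPM in WT and at 0, 0.0207, 0.0443 and 0 CPM in PIK3CA mutants. HER2 mutants had 0, 0.135, 0.0445 and 0.123 CPM, and double mutants 0.0355, 0.042, 0, 0.111 and 0 CPM. All WT samples were above all others for both chains. PIK3CA mutants held 3 reads of Itgad in all against 170 in WT, a rate ratio of 72 with a 95% counting interval of 24.2 to 353. The log2 fold changes of Itgad were -5.86, -3.66 and -4.61 in the 3 mutants, with edgeR adjusted p values of 0.00642, 0.0247 and 0.00447. The first call was lost without WT replicate 3 (0.0504), and the second without WT replicate 1 or 3 or HER2 mutant replicate 3 (0.0578 to 0.144) and in the fit of 2 genotypes (0.0675).

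Itga4, whose product pairs with Itgb1 or Itgb7 and binds Vcam1, was at 2.85, 2.56 and 9.59 CPM in WT and at 0.0636, 0, 0.443 and 5.09 CPM in PIK3CA mutants. HER2 mutants had 0.358, 0.732, 0.178 and 4.34 CPM, and double mutants 0, 0.21, 0.0393, 0.0369 and 0 CPM. Replicate 4 of both single mutants lay within the WT range, and every double mutant was below every WT sample. In edgeR, Itga4 fell in double mutants (log2 fold change -6.45, SE 1.56, adjusted p 0.0136), a call lost without WT replicate 3 (adjusted p 0.0663). Itgb7 and Itgae, the chains of the integrin of lymphocytes within epithelia, passed no test, at 1.68 to 5.53 and 0.532 to 1.89 CPM over all samples.

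Summed leukocyte marker genes, like the beta2 integrin genes, were lower in all mutant samples than in WT. The sum of 12 such genes, none of them an integrin, was 582 to 3370 CPM in WT. It was 14.7 to 38.2 CPM in PIK3CA mutants, 11.3 to 209 CPM in HER2 mutants and 13.5 to 69.8 CPM in double mutants. Its largest part in WT was Lyz2, at 405 to 2650 CPM. In PIK3CA and double mutants it was Cd68, at 10.3 to 33.2 and 10.7 to 65.4 CPM. In HER2 mutants Lyz2 was at 0.123 to 142 CPM and Cd68 at 7.78 to 32 CPM. Of 11 markers tested, 10, 8 and 10 fell in the 3 mutants against WT, where 3.03%, 5.63% and 6.72% of all genes fell. At 0 were 0 of the 12 in WT samples, 1 or 2 in PIK3CA mutants, 0 to 2 in HER2 mutants and 1 to 3 in double mutants. In HER2 mutants the sums were 209, 110, 36.1 and 11.3 CPM, and replicates 1 and 2 were the highest here as for Itgb2 and Itgax. HER2 mutant replicate 4, with the lowest sum, had the highest Itga4 of its genotype, 4.34 CPM. The part of leukocyte RNA in the fall of the beta2 integrins and of Itga4 was not tested.

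**Figure D3:**
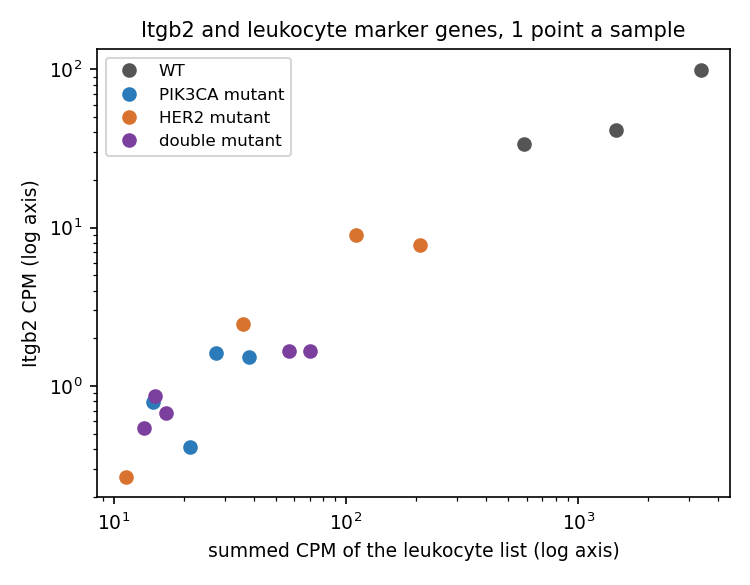
Itgb2 CPM against the summed CPM of 12 leukocyte marker genes, both on log axes, 1 point a sample. The 3 WT samples lie at 33.9 to 99.7 CPM of Itgb2 and at leukocyte sums of 582 CPM and above, and the mutant samples lie at lower values of both.

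Among mutants, Itgam, Itgax and Itga9 were lower in double than in HER2 mutants, with log2 fold changes of -5.78, -5.13 and -3.03 (edgeR adjusted p 0.0483, 0.0266 and 0.0319). Itgam rested on 115 reads in HER2 mutants and 2 in double mutants, a rate ratio of 75.4 with a 95% counting interval of 20.4 to 630. The samples overlapped for all 3. The calls were lost without HER2 mutant replicate 1 and in 7, 5 and 4 of the 9 fits that each left out 1 sample (adjusted p 0.0513 to 0.104 over the 3). That of Itga9 was also lost in the fit of 2 genotypes (0.182). Itgam and Itgax were not tested in that fit, because without WT they did not pass the filter on low counts. With the replicate block, all 3 calls were lost. The other samples whose absence ended a call were HER2 mutant replicate 2 (Itgam), double mutant replicates 2, 4 and 5 (all 3), 1 (Itgam and Itgax) and 3 (Itgam). Leukocyte markers moved here too, with 6 of 11 lower in double mutants, against 1.47% of all genes. Itga9, which encodes a receptor chain for tenascin-C, ranged from 0.675 to 17.1 CPM in HER2 mutants, the highest in replicate 1, and from 0.196 to 1.76 CPM in double mutants.

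The promoters of Itgam and Itgax are shown because both chains were among the most lowered genes of the set and both are known targets of PU.1, the transcription factor of myeloid cells. The sequences are the 250 bases before the start in the same RefSeq table (GRCm38.p6), at chr7:128062390-128062639 and chr7:128129300-128129549 on the plus strand. For Itgax that start lies slightly downstream of the gene start given above. Capitals mark the PU.1 core letters GAGGAA on either strand.
Itgam: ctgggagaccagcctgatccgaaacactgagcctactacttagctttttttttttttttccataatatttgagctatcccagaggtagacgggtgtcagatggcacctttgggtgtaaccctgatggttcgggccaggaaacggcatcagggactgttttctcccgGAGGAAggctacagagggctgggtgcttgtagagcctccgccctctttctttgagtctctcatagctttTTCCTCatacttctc
Itgax: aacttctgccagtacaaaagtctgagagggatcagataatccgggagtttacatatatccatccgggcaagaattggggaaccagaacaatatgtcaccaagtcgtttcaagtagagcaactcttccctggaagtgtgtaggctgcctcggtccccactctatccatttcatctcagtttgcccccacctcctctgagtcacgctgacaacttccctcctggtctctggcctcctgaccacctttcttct
Itgam held 2 matches, 84 bases before the start on the plus strand and 15 bases before it on the minus strand, and Itgax held none of these letters in this window. The letters occurred in 23.3% of the 32851 promoters, and in 13 of the 27 entries of the 39 genes, most of them not leukocyte integrins.

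Itgb3 and Itgb8, whose products pair with alphav, were lower in HER2 mutants than in WT and PIK3CA mutants. Itgb3 (chromosome 11, 104608000 to 104670476, plus strand) encodes the beta3 chain of a vitronectin receptor. It was at 204, 221 and 310 CPM in WT and at 279, 226, 265 and 220 CPM in PIK3CA mutants. HER2 mutants had 83.2, 81.3, 66 and 76 CPM, and double mutants 218, 56.2, 88.8, 90.6 and 97.4 CPM. All HER2 mutant samples and 4 of 5 double mutant samples were below every WT and PIK3CA mutant sample, and double mutant replicate 1 was within the WT range. In edgeR, Itgb3 was 3.23-fold lower in HER2 than in PIK3CA mutants (log2 fold change -1.69, SE 0.304, adjusted p 0.00699) and fell against WT (-1.68, SE 0.319, adjusted p 0.00486), both kept without any 1 sample. Double mutants fell against WT by 1.15 (SE 0.299, adjusted p 0.0201), a call lost without WT replicate 3 (adjusted p 0.133) and in the fit of these 2 genotypes alone (0.0782). Against PIK3CA mutants they differed by -1.17, with all samples lower but an adjusted p of 0.0736.

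Itgb8 (chromosome 12, 119158022 to 119238802, minus strand) encodes the beta8 chain, known for activating latent TGF-beta. It was at 148, 86.3 and 146 CPM in WT and at 110, 124, 142 and 101 CPM in PIK3CA mutants. HER2 mutants had 77.4, 42, 59.1 and 61.3 CPM, and double mutants 72.4, 62.5, 53.1, 64 and 62.1 CPM. Every sample with the HER2 mutation was below every sample without it. Itgb8 fell by 1.08 in HER2 mutants and by 1.01 in double mutants against WT on the log2 scale (SE 0.208 and 0.196, edgeR adjusted p 0.00504 and 0.0034). Against PIK3CA mutants the log2 fold changes were -0.99 in HER2 mutants (SE 0.195, adjusted p 0.0113) and -0.92 in double mutants (SE 0.183, adjusted p 0.0346). The last call was lost in each of the 9 fits that left out 1 sample (adjusted p 0.0541 to 0.163) and with an offset for GC content and length. The other 3 were kept without any 1 sample, and that of HER2 mutants against WT was lost in the fit of these genotypes alone (adjusted p 0.0793). The PIK3CA mutation made no detectable difference to Itgb8, at -0.09 against WT (95% interval -0.53 to 0.35) and 0.07 on the HER2 background (-0.32 to 0.46).

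Itgb5 encodes the beta5 chain of another vitronectin receptor and fell in all mutants. It was at 302, 254 and 370 CPM in WT and at 179, 183, 212 and 176 CPM in PIK3CA mutants. HER2 mutants had 195, 181, 200 and 134 CPM, and double mutants 144, 131, 170, 134 and 155 CPM. All WT samples were above all mutant samples. The log2 fold changes were -0.72, -0.8 and -1.07 (SE 0.159, 0.159 and 0.15, edgeR adjusted p 0.0152, 0.00628 and 0.000403). The call in PIK3CA mutants was lost without WT replicate 3 or PIK3CA mutant replicate 1 or 2 (adjusted p 0.052 to 0.141), and that in HER2 mutants without WT replicate 3 (0.055) and in the fit of 2 genotypes (0.0843). Itgav itself, at 183 to 397 CPM over all samples, and Itgb6, at 14.1 to 30.5 CPM, passed no test. Itga8, which binds nephronectin and was at 30.7 to 264 CPM, Itga5, the fibronectin receptor chain at 3.87 to 32.1 CPM, and Itga2b, the platelet chain at 3.19 to 14.1 CPM, passed none either.

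Spp1 and Tnc, which encode the integrin ligands osteopontin and tenascin-C, were among the 10 other ligand genes tested. Spp1 fell in HER2 mutants against WT (log2 fold change -1.86, edgeR adjusted p 0.0154) and rose from HER2 to double mutants (1.67, adjusted p 0.0414). Tnc rose in double mutants against WT (1.97, adjusted p 0.0301), and Npnt, the nephronectin gene, was higher in HER2 than in PIK3CA mutants (2.79, adjusted p 0.0481).

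Of the collagen receptors, Itga2 rose in both genotypes with the PIK3CA mutation and Itga11 fell in both with the HER2 mutation, each against WT. Itga2, whose product pairs with Itgb1 on epithelial cells and platelets, was at 21.3, 35.1 and 14.5 CPM in WT and at 69.9, 92.9, 64.6 and 94 CPM in PIK3CA mutants. HER2 mutants had 31.6, 38.7, 76.7 and 52.8 CPM, and double mutants 72.4, 179, 121, 93.4 and 93 CPM. All PIK3CA and double mutant samples were above all WT samples, and HER2 mutants overlapped WT. Itga2 was 3.4-fold higher than WT in PIK3CA mutants by edgeR (log2 1.76, SE 0.365, adjusted p 0.0102) and 4.72-fold higher in double mutants (2.24, SE 0.364, adjusted p 0.00101). The first call was lost without WT replicate 1 or 3 (adjusted p 0.0541 to 0.08), and the second was kept without any 1 sample. HER2 mutants differed from WT by 1.08 (95% interval 0.32 to 1.83, adjusted p 0.0656), and the interaction was not called (-0.6, adjusted p 0.626). HER2 against PIK3CA mutants (-0.69, edgeR adjusted p 0.255) and double against HER2 mutants (1.16, 0.058) overlapped and were not called.

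Itga11, known from fibroblasts, was at 6.12, 11.4 and 13.7 CPM in WT and at 9.57, 5.83, 3.54 and 9.97 CPM in PIK3CA mutants. HER2 mutants had 1.17, 4.36, 0.846 and 1.92 CPM, and double mutants 2.09, 1.64, 5.89, 2.36 and 1.3 CPM. Both genotypes with the HER2 mutation lay below WT. In edgeR the log2 fold change was -2.33 in HER2 mutants (SE 0.584, adjusted p 0.0206), lost without WT replicate 3 (0.0962) and in the fit of 2 genotypes (0.0767). It was -1.97 in double mutants (SE 0.539, adjusted p 0.0262). That call was lost without WT replicate 2 or 3 or double mutant replicate 1, 2, 4 or 5 (0.0502 to 0.13). Against PIK3CA mutants, HER2 mutants (-1.8, edgeR adjusted p 0.0754) and double mutants (-1.44, 0.243) overlapped and were not called. Fibroblast marker genes, 8 in all, summed to 367 to 1980 CPM in WT and 68.3 to 495 CPM in PIK3CA mutants. The sums were 35.4 to 650 CPM in HER2 mutants and 27.7 to 61.5 CPM in double mutants. In these mutants, 1, 2 and 7 of the 8 were lower than in WT, against 3.03%, 5.63% and 6.72% of all genes. At most 1 of the 8 was at 0 in any sample, and their part in the Itga11 result was not tested. Itga1 and Itga10, the other collagen receptor chains, were at 2.38 to 15.9 and 1.23 to 3.07 CPM and passed no test. Of the exon sequence of Itga10, 33.5% is shared with the gene Gm42957 on the same strand.

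Itgb1, Itga6, Itga3 and Itgb4, chains of laminin receptors, were among the most abundant members, and none of these 4 was called in any comparison. Per kilobase, Itgb1 was highest in WT (88 ± 13.3 RPKM, SD, n = 3), PIK3CA mutants (111 ± 9.04, n = 4) and double mutants (127 ± 32.3, n = 5), and in HER2 mutants stood beside Lama5 (105 ± 21.3 and 106 ± 46.7, n = 4). Itgb5 in WT, at 86.8 ± 16.4 RPKM, was within the spread of Itgb1. Itgb1, which forms the widest set of integrin pairs, was at 312, 419 and 346 CPM in WT and at 428, 485, 418 and 488 CPM in PIK3CA mutants. HER2 mutants had 346, 393, 549 and 423 CPM, and double mutants 465, 709, 593, 401 and 414 CPM. Its largest log2 difference was that of double mutants and WT, 0.52 (95% interval 0.1 to 0.95, edgeR adjusted p 0.1).

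Itga6, whose product pairs with Itgb4 in hemidesmosomes, was at 447, 808 and 404 CPM in WT and at 768, 806, 789 and 819 CPM in PIK3CA mutants. HER2 mutants had 1210, 468, 704 and 750 CPM, and double mutants 715, 761, 783, 678 and 739 CPM. Itgb4 was at 224, 344 and 199 CPM in WT and at 405, 361, 316 and 435 CPM in PIK3CA mutants. HER2 mutants had 932, 286, 387 and 176 CPM, and double mutants 348, 340, 465, 452 and 502 CPM. HER2 mutant replicate 1 was the highest of all 16 samples for both chains, and the HER2 mutants spread wider than any other genotype. The largest log2 differences from WT were 0.52 for Itga6, in PIK3CA mutants (95% interval -0.04 to 1.09), and 0.8 for Itgb4, in HER2 mutants (-0.05 to 1.65). Itga3 was at 173 to 666 CPM over all samples, and its samples in both single mutants were above WT with no call (0.55 and 0.71, edgeR adjusted p 0.448 and 0.204). Itga7, a laminin receptor chain known from muscle, spread from 0.377 to 51.8 CPM within HER2 mutants alone and passed no test.

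The partners of these receptors inside the cell included called genes in each comparison with WT. Of 26 genes of the integrin adhesion machinery, 3 fell in PIK3CA mutants against WT, 6 fell in HER2 mutants, and 2 rose and 5 fell in double mutants. Of all genes, 3.03%, 5.63% and 6.72% fell and 1.49%, 4.75% and 5.03% rose in these comparisons. Tns1, which encodes the adaptor tensin1, fell in all 3 (log2 fold changes -1.51, -2.27 and -3.03) and was lower in double than in PIK3CA mutants (-1.52, edgeR adjusted p 0.0215). Parvg and Fermt3, known from blood cells, fell in all 3 as well, Parvg by 6.11, 4.27 and 6.79 and Fermt3 by 2.91, 1.82 and 2.67. Lims1 was the 1 gene higher in double than in HER2 mutants (0.7, adjusted p 0.0358). Of 6 hemidesmosome genes, Krt5 and Col17a1 fell in HER2 mutants against WT (-2.89 and -2.36), and Krt5 rose from HER2 to double mutants (2.73). Krt5 is also a basal cell marker.

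Laminin chains changed by chain and not as 1 group, with rises in Lama4, Lama5, Lamb3 and Lamc1 and falls in Lama2 and Lamc3. Per kilobase, Lama5, Lamb3 and Lamb2 were highest, at 39 ± 11.1, 36.3 ± 7.69 and 38.7 ± 1.98 RPKM in WT (SD, n = 3), which do not differ beyond their spread. Lama4 (chromosome 10, 38965515 to 39110188, plus strand), a chain known from blood vessel and fat basement membranes, was at 34.4, 62.6 and 49.6 CPM in WT and at 88.9, 103, 91.9 and 90.3 CPM in PIK3CA mutants. HER2 mutants had 142, 88.8, 123 and 176 CPM, and double mutants 109, 93.1, 83.7, 108 and 107 CPM. Every mutant sample was above every WT sample. The log2 fold changes against WT were 0.94 (SE 0.215) in PIK3CA mutants, 1.44 (SE 0.219) in HER2 mutants and 1.04 (SE 0.209) in double mutants, with edgeR adjusted p values of 0.0188, 0.00148 and 0.00443.

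The interaction of both mutations was called for Lama4 alone among the 39 (log2 -1.34, SE 0.282, edgeR adjusted p 0.0345): double mutants were 0.4 lower than HER2 mutants, whereas PIK3CA mutants were 0.94 higher than WT. This call was lost in 8 of 16 fits that left out 1 sample (edgeR adjusted p 0.0542 to 0.114). These were the fits without WT replicate 1 or 3, any PIK3CA mutant sample, or double mutant replicate 4 or 5. It was also lost with the replicate block. As the interaction includes WT, genotype and tissue source cannot be told apart in it. The rise in PIK3CA mutants was lost without WT replicate 1 or 3 or PIK3CA mutant replicate 2 (0.0507 to 0.106). Those in HER2 and double mutants were kept without any 1 sample. Endothelial marker genes, at 0.628 to 2 CPM summed in mutants and 2.06 to 5.07 CPM in WT, had lower sums in all mutant samples than in any WT sample, and their part in the Lama4 result was not tested.

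Lama5, of the laminin that epithelia make widely, was at 413, 583 and 336 CPM in WT and at 589, 548, 610 and 757 CPM in PIK3CA mutants. HER2 mutants had 905, 1480, 1800 and 639 CPM, and double mutants 497, 1230, 1910, 791 and 821 CPM. HER2 mutants lay above WT, and double mutant replicate 1 lay within the WT range. In edgeR, Lama5 rose in HER2 mutants (log2 fold change 1.44, SE 0.412, adjusted p 0.0367), a call lost without WT replicate 1 or 3 or HER2 mutant replicate 2 or 3 (0.0616 to 0.169) and in the fit of 2 genotypes (0.0897). In double mutants the value was 1.24, with an adjusted p of 0.0535. Lamc1, the gamma chain of most laminins, was at 121, 199 and 153 CPM in WT and at 194, 230, 212 and 271 CPM in PIK3CA mutants. HER2 mutants had 364, 373, 302 and 278 CPM, and double mutants 207, 279, 380, 222 and 231 CPM. It rose in HER2 mutants (1.06, SE 0.221, adjusted p 0.00789), kept without any 1 sample, and in double mutants (0.74, SE 0.211, adjusted p 0.0311). The latter was lost without WT replicate 1 or 3 or double mutant replicate 2 or 3 (0.0563 to 0.168) and in the fit of 2 genotypes (0.0665).

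Lama3 and Lamb3 encode chains of laminin-332, the anchor of hemidesmosomes. Lama3 was at 70.3, 120 and 32.8 CPM in WT and at 179, 197, 71.8 and 157 CPM in PIK3CA mutants. HER2 mutants had 78.7, 49.4, 78.9 and 16.6 CPM, and double mutants 118, 109, 293, 175 and 169 CPM. All double mutants were above all HER2 mutants, at a log2 fold change of 1.63 (95% interval 0.64 to 2.62) that was not called (edgeR adjusted p 0.0707). Lamb3 was at 279, 259 and 182 CPM in WT and at 398, 394, 376 and 430 CPM in PIK3CA mutants. HER2 mutants had 325, 291, 560 and 165 CPM, and double mutants 360, 530, 762, 386 and 427 CPM. Lamb3 rose in double mutants against WT (1.04, SE 0.32, adjusted p 0.0451). That call was lost without any 1 WT sample or without double mutant replicate 2, 3 or 5 (0.0536 to 0.216), and under upper-quartile scaling (0.0536).

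The mean of HER2 mutants was the lowest of the 4 genotypes for Lama3 (5.2 ± 2.76 RPKM, SD, n = 4) and above the WT mean for Lamb3 (50.7 and 36.3 RPKM), with neither gene called between HER2 mutants and WT. Double mutant replicate 3 was the highest sample of its genotype for both chains and in 20 of the 39 genes, more than any of the other 4 double mutants, which were highest in 2 to 8.

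**Figure D4:**
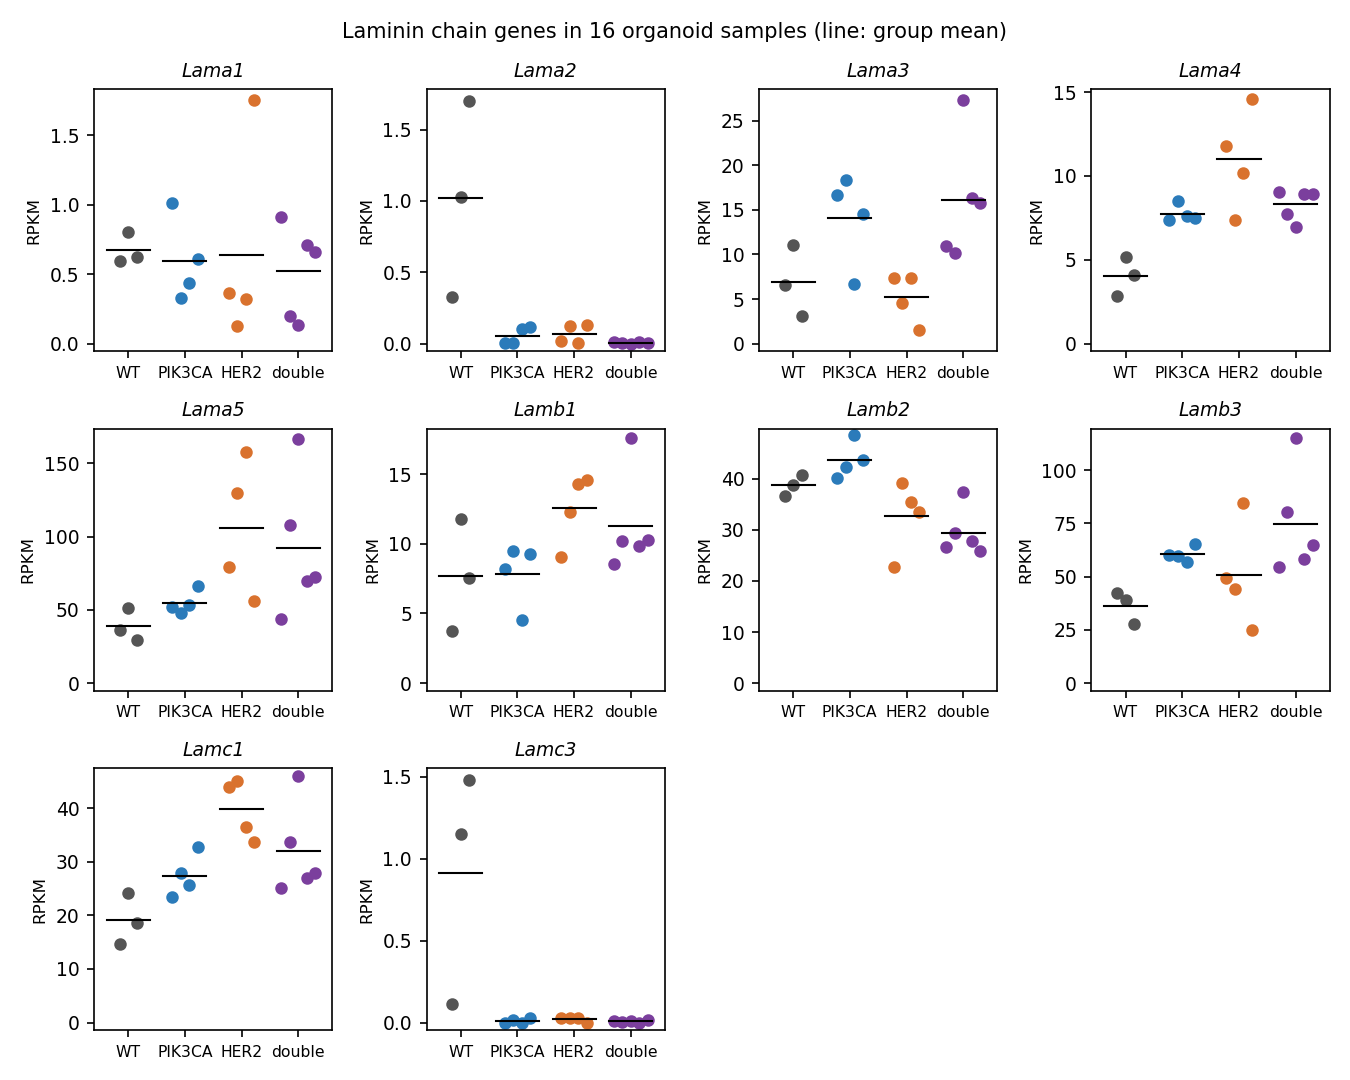
RPKM of laminin chain genes, 1 point a sample in replicate order, with a line at each genotype's mean; each panel has its own axis. Lama4 is higher in every mutant sample than in WT, Lama2 and Lamc3 are lower, and double mutant replicate 3 is the highest double mutant for Lama3 and Lamb3.

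Lama2, the alpha chain known from muscle and stroma, was at 5.37, 16.8 and 27.8 CPM in WT and at 0.0318, 0.0413, 1.64 and 1.93 CPM in PIK3CA mutants. HER2 mutants had 0.321, 1.99, 0.0668 and 2.09 CPM, and double mutants 0.16, 0.0839, 0, 0.148 and 0.117 CPM. Lamc3 was at 0.699, 6.98 and 9.04 CPM in WT and at 0, 0.0826, 0 and 0.179 CPM in PIK3CA mutants. HER2 mutants had 0.17, 0.173, 0.178 and 0 CPM, and double mutants 0.0532, 0.021, 0.0393, 0 and 0.0972 CPM. All WT samples were above all mutant samples for both genes. In edgeR, Lama2 fell in HER2 mutants (log2 fold change -3.9, SE 1.16, adjusted p 0.0425) and double mutants (-7.31, SE 1.26, adjusted p 0.00153). It missed the threshold in PIK3CA mutants (-4.2, adjusted p 0.0538). The call in HER2 mutants was lost without any 1 WT sample or HER2 mutant replicate 1 or 3 (0.0587 to 0.166) and in the fit of 2 genotypes (0.0889), and that in double mutants was kept without any 1 sample.

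Lamc3 fell in all 3 mutants, by 6.35, 5.39 and 6.97 on the log2 scale (edgeR adjusted p 0.00283, 0.00462 and 0.000562), each kept without any 1 sample. In PIK3CA and HER2 mutants, Lama2 was above 1 CPM in replicates 3 and 4 and in replicates 2 and 4, and these were the 2 samples of each genotype with the highest fibroblast sums, 186 and 495 CPM and 331 and 650 CPM. Replicate 4 of both single mutants, with the highest fibroblast sum of its genotype, also had the Itga4 levels within the WT range. The part of fibroblast RNA in the Lama2, Lamc3 and Itga4 results was not tested. Lama1, at 1.23 to 16.9 CPM, Lamb1, at 37.2 to 175 CPM, and Lamb2, at 138 to 296 CPM, passed no test.

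Among other basement membrane genes there were calls in both directions. Of 16, 1 rose and 1 fell in PIK3CA mutants against WT, 1 rose and 2 fell in HER2 mutants, and 3 rose and 2 fell in double mutants. Of all genes, 1.49%, 4.75% and 5.03% rose and 3.03%, 5.63% and 6.72% fell. Nid2, which links laminin to collagen IV, fell in all 3 (log2 fold changes -3.61, -3.2 and -3.79), and the collagen IV chain gene Col4a5 rose in all 3 (1.12, 1.53 and 1.06). Ntn4, which encodes a netrin that binds laminin, was lower in both genotypes with the HER2 mutation than in PIK3CA mutants (-1.46 and -1.5, edgeR adjusted p 0.0107 and 0.0215). Col4a5 also had a negative interaction (-1.59, SE 0.362, adjusted p 0.0487), the 1 call of the 16.

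**Figure D5:**
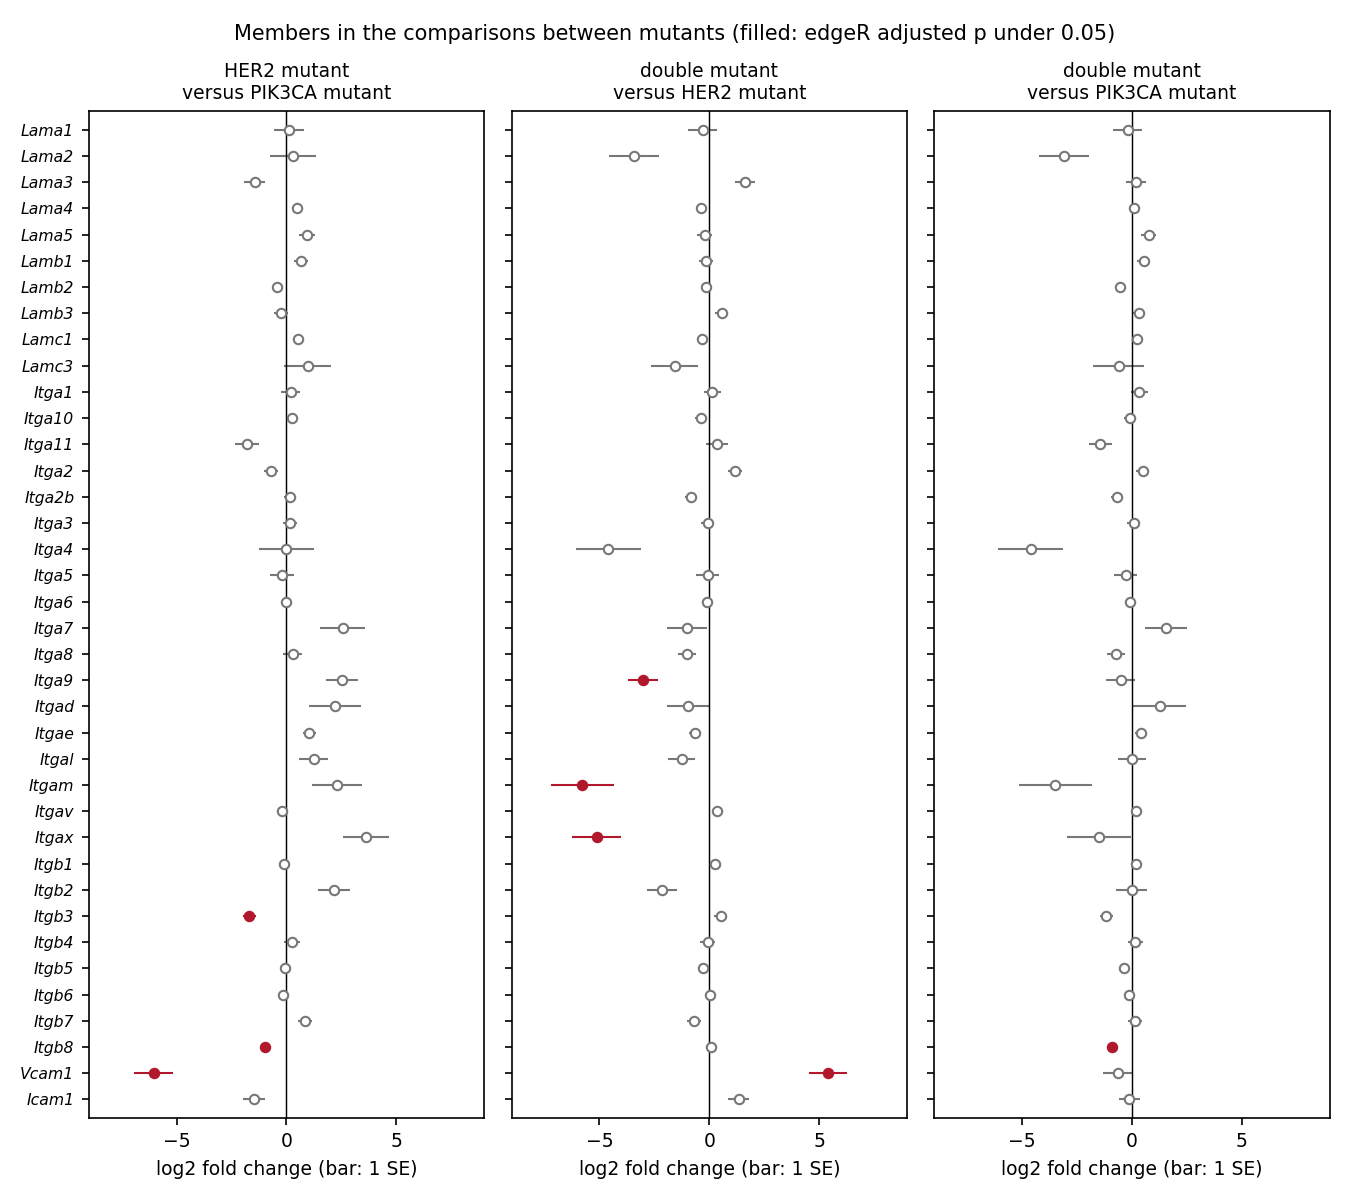
Log2 fold change of the genes named in the 3 comparisons between mutants, with bars of 1 SE; filled points passed edgeR's test at an adjusted p under 0.05. Vcam1 stands at -6.05 in HER2 against PIK3CA mutants and at 5.41 in double against HER2 mutants, and 1 point, Itgb8, is filled in double against PIK3CA mutants.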

How the data were processed

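RNA sequencing of 16 organoid samples was analysed. The authors deposited whole-number read counts per Ensembl gene, not normalized. The submitters' processing notes name bcl2fastq 2.20, STAR 2.0.4b, Subread, featureCounts 1.4.5, DESeq2 1.33.5 and mm10, with no role or order; strandedness is not given in the sources used here. A deposited table of normalized values was not used here. Of 55774 entries, 287 repeated an identifier with the same counts and were dropped. The 39 genes and all gene lists were chosen with earlier results of these data known.

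Counts were filtered (filterByExpr), scaled by TMM and tested in edgeR 4.0.16 (R 4.3.3) in 1 quasi-likelihood fit of all samples by genotype, with 6 pairs and the interaction, called at an adjusted p under 0.05. The SE is the absolute log2 fold change over the square root of F. The fit was tested on simulated data. RPKM used exon lengths of GENCODE M21. Rate ratios have 95% exact (Clopper-Pearson, conditional on the sum) intervals, which cover counting error only. Members are named with all samples where called with no overlap in a pair, or where in a fixed list (Vcam1, Icam1, Itga6, Itgb4, Itgb1, Itga4, Lama3, Lamb3 and 1 gene that is not reported here). Of other lists, at most 4 called genes per comparison are named, by size. A sample with 3 counts of a gene stands at 0.0477 to 0.0668 CPM. Alternatives were other scaling factors, DESeq2 1.42.0, no filter, a replicate block, fits of 2 genotypes, leaving out each sample and, chosen after seeing the data, an offset for GC content and length.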

Additional observations from a re-analysis of the deposited data

Results flagged for a closer look

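Lamb1 in double mutant replicate 3 stood apart from its genotype, at 175 CPM against 85.1 to 103 CPM in the other 4 samples. Lamc3 in HER2 mutant replicate 4 was at 0 CPM against 0.17 to 0.178 CPM in the other 3. Both came from a test for a sample far from its group in 117 groups of 4 or 5 samples, a test that flags about 1 in 20 by chance. Lama4 was flagged for its interaction, the change with the HER2 mutation in PIK3CA mutants minus that in WT. It was -1.34 on the log2 scale, tested in edgeR as described above. This value includes WT, the only genotype from normal breast, so a dependence on background and the tissue source cannot be told apart.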

How the results depend on the processing

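No call changed direction under any alternative run. With each sample left out in turn, the number of members called ranged from 4 to 10 in PIK3CA mutants against WT (9 in the full fit), 6 to 14 in HER2 mutants against WT (14), 11 to 18 in double mutants against WT (16), 1 to 5 in double against HER2 mutants (4), 0 to 1 in double against PIK3CA mutants (1), 3 to 6 in HER2 against PIK3CA mutants (3) and 0 to 2 in the interaction (1). Fits of only the genotypes compared gave 17 in PIK3CA mutants and 4 in HER2 mutants against WT, and 0 in double against HER2 mutants. DESeq2 gave 8 in double against HER2 mutants, 3 in double against PIK3CA mutants, 10 in HER2 against PIK3CA mutants and 5 in the interaction. Without a filter on low counts, HER2 against PIK3CA mutants had 5. With the replicate block, double against HER2 mutants had 1, double against PIK3CA mutants 0 and the interaction 0, and the same with the block and the offset for GC content and length together. That offset alone gave 0 in double against PIK3CA mutants. The cause was not tested. Replicate numbers were not taken to pair the samples: the correlation of same-numbered samples' deviations ranged from -0.163 to 0.273 over the 6 pairs of genotypes, and in double against HER2 mutants, at 0.0711 to 0.273, 2 of 4 double mutants correlated best with their own number. Under upper-quartile scaling, 30.2% of all genes called in double against HER2 mutants were higher, against 41.1% under TMM. Members at a few reads a sample, such as Itgam, Itgax, Itgad and Lamc3 in mutants, have fold changes that rest on those reads.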
